A study of Arabidopsis thaliana with 9 samples.

Results

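The loci described here are those at which both altered lines of the study stood on the same side of the wild type. They are PP2-A5oe, an overexpressor of PP2-A5, and pp2-a5, a mutant of the same gene, and the wild type is Col-0. PP2-A5 is a lectin of the phloem protein 2 family that also carries a TIR domain, the signalling module found in many plant immune receptors. Rosettes of 3-week-old Arabidopsis thaliana were sampled and their polyadenylated RNA was sequenced, with 3 biological replicates in each of the 3 groups. The series concerns the defence of these plants against the spider mite Tetranychus urticae, and all libraries used here carry the treatment label Control. The labels give the rosette as the tissue, while the extraction text speaks of seedlings. The labels name 1 overexpressing and 1 mutant line, so what PP2-A5 does and what else sets those plants off from Col-0 cannot be told apart. The libraries of the mutant are named SALK1 to SALK3 in the count table, and the promoter of the transgene is not stated in the labels. The transcript of PP2-A5 itself was not analysed here, so the genotypes were not checked on the gene they are named for.

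A locus was kept when all 6 altered libraries, 3 of PP2-A5oe and 3 of pp2-a5, lay above all 3 Col-0 libraries, or all 6 lay below them, in CPM, the count of a locus relative to the TMM-scaled total of its library. Of all 22155 loci, 3077 met this rule, 1733 above and 1344 below Col-0. A filter on low counts kept 13975 loci for testing, among them 2868 of the 3077; 209 did not pass, and a locus present in few libraries passes more easily when it is high in the larger side. The 1635 tested loci above Col-0 were 11.7% of all loci tested, and the 1233 below were 8.82%. These counts, and the folds against Col-0 given for these loci, describe what the rule selected. The rule did not use the contrast of the 2 altered lines with each other, and that contrast is the one tested on these loci. The rule did use the same 6 altered libraries, so the shares of loci called between the lines are not independent of it.

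Plants recognise attack with receptors at the cell surface, whose signals pass through MAP kinases to transcription factors of the WRKY, ERF and zinc finger families. Salicylic acid and jasmonate carry the response further, and glucosinolates are the stored defence compounds of Arabidopsis, built from methionine (aliphatic) or tryptophan (indolic). Transcripts of light-harvesting and photosystem proteins, in contrast, make up much of the messenger RNA of a leaf.

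Above Col-0 in both lines stood stress regulators, some receptors and kinases of immunity, and some genes of salicylic acid, jasmonate, sulphate reduction, indolic glucosinolates and the clock. Below Col-0 stood aliphatic glucosinolate genes, light-harvesting and photosystem genes, and several expansins. The upward part was the larger in fold, but the 2 sides also differed in level. The median Col-0 level was 25.6 CPM for the loci above and 48.0 CPM for those below, against 19.6 CPM over all tested loci. Whether level bears on the folds was not tested. The median log2 fold change of the mean of both lines was 0.54 for the loci above (a fold of 1.45), with quartiles of 0.33 and 0.88. For the loci below, the median was -0.33 (a fold of 0.795), with quartiles of -0.47 and -0.24. At least 2-fold in each of the 2 lines was reached by 196 loci above Col-0 and by 17 below. Over all tested loci the median log2 fold change was -0.01.

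Fitted over all 13975 tested loci (edgeR quasi-likelihood test with Benjamini-Hochberg adjustment), the mean of both lines differed from Col-0 at 3751 loci, 26.8% of those tested. Higher in the altered lines were 2112 (15.1%) and lower were 1639 (11.7%). Of the loci lying apart, 2470 were among the 3751, and 398 were not. PP2-A5oe alone differed from Col-0 at 3496 loci (25%) and pp2-a5 alone at 2902 (20.8%), and these comparisons share the Col-0 libraries. How the loci split by direction depended on the scaling: with upper-quartile factors 1364 loci lay above and 1643 below, so that 45.4% were above, in place of 57.0%. The loci called numbered 1836 higher and 2203 lower with those factors. All 1233 loci below Col-0, and 1364 of the 1635 above it, kept their side under that scaling.

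**Figure D1:**
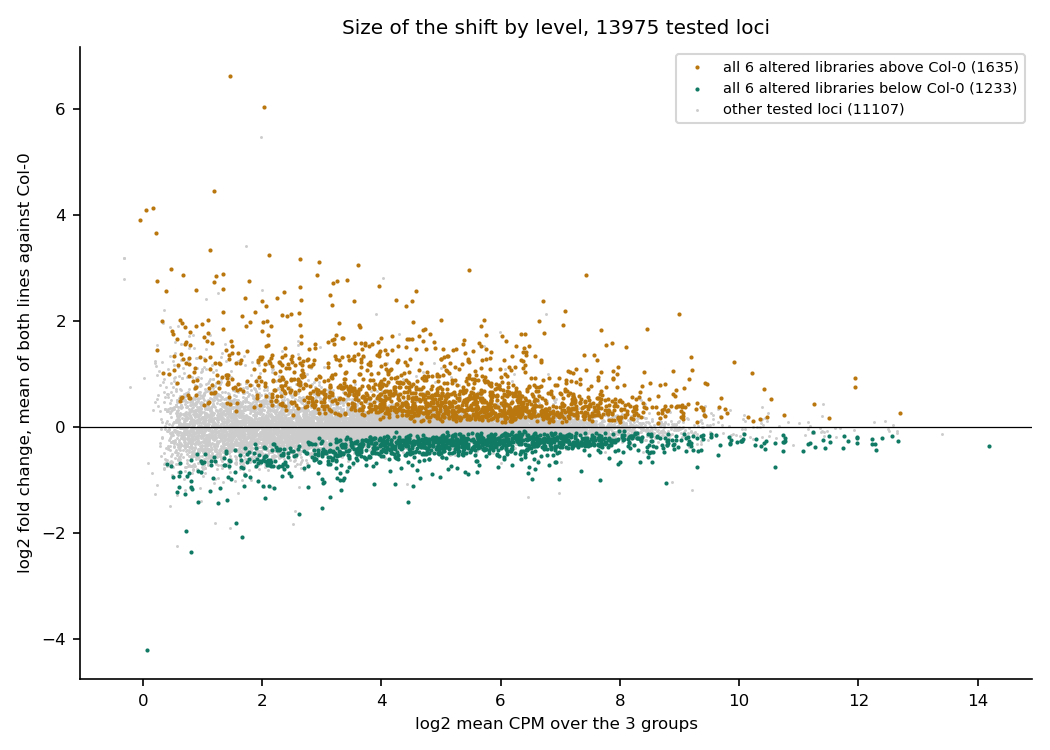
Each point is 1 of 13975 tested loci, by its log2 mean CPM over the 3 groups (x axis) and the log2 fold change of the mean of PP2-A5oe and pp2-a5 against Col-0 (y axis), with the 1635 loci above Col-0 in all 6 altered libraries in ochre, the 1233 below in green and the others in grey. The loci above reach farther from 0 than those below, with medians of 0.54 and -0.33.

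Col-0 replicate 3 stood apart from the other Col-0 libraries. Against Col-0 replicates 1 and 2 its counts gave a chi-square of 5.65 and 6.91 per degree of freedom, while pairs of other replicates gave 1.59 to 3.44. Mitochondrial transcripts made up 0.178% of its counts and 0.132% of those of PP2-A5oe replicate 2, against 0.0741% to 0.0878% in the other 7 libraries. Total counts ran from 5408847 to 6196722 per library. Without Col-0 replicate 3, 2833 of the 2868 loci lay apart on the same side and all 2868 had the same sign. Dropping a Col-0 library only loosens the rule, apart from changes in scaling, so this was nearly fixed in advance. The loci below Col-0 then numbered 2078 and those above 2137. Without Col-0 replicate 1 the numbers were 1636 below and 1953 above, and without Col-0 replicate 2 they were 1798 and 2086. Without Col-0 replicate 3 and PP2-A5oe replicate 2 the counts were 2309 above and 2217 below. The replicates are called biological in the labels, which do not say how they were grown, so p-values measure the spread between these samples only. RNA from whole tissue was measured, so fewer cells of a type and less RNA per cell cannot be told apart.

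The promoters of a few of these loci are shown because their transcripts stood above Col-0 in both lines and motifs of defence and stress factors lie in them. Each is the 250 bases before the annotated start of the gene, from the RefSeq genome (TAIR10.1), 5′ to 3′ on the strand of the gene. In the first 4, capitals mark the W-box, the binding motif of WRKY factors, searched as TTGACC or TTGACT on both strands. In the last 2, capitals mark CGCGTT on either strand, a motif of the rapid stress response; a motif is shown as a description, not as a bound site.
WRKY30 (chr5:8154711-8154960, minus strand): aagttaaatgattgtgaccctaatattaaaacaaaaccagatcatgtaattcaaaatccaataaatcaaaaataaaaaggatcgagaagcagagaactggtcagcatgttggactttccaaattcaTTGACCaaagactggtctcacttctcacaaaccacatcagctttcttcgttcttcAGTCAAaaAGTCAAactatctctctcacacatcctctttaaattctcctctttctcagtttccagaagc
WRKY53 (chr4:12393983-12394232, minus strand): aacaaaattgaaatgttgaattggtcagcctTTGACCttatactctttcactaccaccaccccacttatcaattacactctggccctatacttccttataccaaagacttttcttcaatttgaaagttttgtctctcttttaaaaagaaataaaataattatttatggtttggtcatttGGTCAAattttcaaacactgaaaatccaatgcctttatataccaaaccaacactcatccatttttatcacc
WRKY33 (chr2:16107985-16108234, plus strand): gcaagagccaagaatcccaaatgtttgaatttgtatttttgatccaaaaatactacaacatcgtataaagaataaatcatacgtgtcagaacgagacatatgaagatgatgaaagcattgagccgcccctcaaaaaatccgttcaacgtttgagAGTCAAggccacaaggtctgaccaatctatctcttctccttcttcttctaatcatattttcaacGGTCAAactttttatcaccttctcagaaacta
CYP81F2 (chr5:23187590-23187839, plus strand): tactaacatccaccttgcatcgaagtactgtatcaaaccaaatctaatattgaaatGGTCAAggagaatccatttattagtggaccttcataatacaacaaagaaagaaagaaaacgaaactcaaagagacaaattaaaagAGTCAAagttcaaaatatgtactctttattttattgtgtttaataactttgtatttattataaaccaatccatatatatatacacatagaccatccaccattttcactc
DIC2 (chr4:12686209-12686458, plus strand): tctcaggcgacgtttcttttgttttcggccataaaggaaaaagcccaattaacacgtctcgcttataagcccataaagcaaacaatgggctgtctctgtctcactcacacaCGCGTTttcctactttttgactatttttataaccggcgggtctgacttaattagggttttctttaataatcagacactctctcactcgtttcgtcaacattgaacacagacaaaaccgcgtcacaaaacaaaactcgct
CBF2 (chr4:13016236-13016485, minus strand): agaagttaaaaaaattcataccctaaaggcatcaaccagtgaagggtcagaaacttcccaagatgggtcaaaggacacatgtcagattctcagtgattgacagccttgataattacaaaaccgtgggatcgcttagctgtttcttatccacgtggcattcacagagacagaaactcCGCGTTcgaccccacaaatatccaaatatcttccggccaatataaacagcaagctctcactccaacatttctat
The WRKY30 promoter held 3 W-boxes, those of WRKY53, WRKY33 and CYP81F2 held 2 each, and those of DIC2 and CBF2 held 1 CGCGTT each. These 6 were picked after their values and motifs were seen. Over all promoters of this length, at least 1 W-box was found in 34.6% of 1630 loci above Col-0, in 25.3% of 1220 below and in 28.3% of 13859 tested. CGCGTT was found in 4.17% of the loci above, 2.21% of those below and 2.69% of all. The G-box CACGTG was in 7.98% of the loci above, 6.72% of those below and 7.06% of all. The evening element of clock genes, AAAATATCT, was in 3.07% of the loci above, 2.46% of those below and 2.41% of all. All were searched on both strands. These shares are a description and were not tested.

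The loci farthest from Col-0 in both lines were ranked by the smaller of their 2 fold changes. Several of the first 15 were near silent in Col-0. Group means below are given ± SD over 3 libraries, and log2 fold changes and differences ± SE or with a 95% interval. AT1G26250 (chromosome 1, 9083838 to 9085464, TAIR10.1), an extensin-like wall protein gene that overlaps another gene, had 2.65, 2.52 and 3.11 CPM in PP2-A5oe, 9.89, 9.09 and 9.54 in pp2-a5, and 0, 0.167 and 0 in Col-0. Col-0 had 1 count in all, and the ratio was 48.5 in PP2-A5oe (counting interval 8.29 to 1953) and 166.7 in pp2-a5 (29.5 to 6621). Its neighbour AT1G26240, of the same family and hence uncertain in its share of the reads, had 12 and 49 counts in PP2-A5oe and pp2-a5, against 1 in Col-0. AT5G21960 (chromosome 5, 7258037 to 7259568), annotated as a DNA-binding protein of the integrase type, had 135 counts in PP2-A5oe and 10 in pp2-a5, against 0 in Col-0. Against a floor of 3 counts over the group it was at least 45.4-fold higher in PP2-A5oe and at least 3.14-fold higher in pp2-a5.

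Other loci of that rank had a measurable Col-0 level and lay in 1 range in both lines. MC8 (chromosome 1, 5612150 to 5614020), a metacaspase of the protease family tied to cell death, had 7.79, 10.09 and 8.13 CPM in PP2-A5oe, 9.89, 9.09 and 8.29 in pp2-a5, and 1.61, 0.837 and 0.373 in Col-0. FAMT (chromosome 3, 16379571 to 16381434), which methylates farnesoic acid, had 11.4, 9.91 and 13.1 CPM in PP2-A5oe, 10.2, 11.6 and 9.69 in pp2-a5, and 1.13, 1.34 and 1.31 in Col-0. The 6 altered libraries of each gene formed 1 cluster well above the 3 Col-0 libraries. The difference between PP2-A5oe and pp2-a5 was -0.07 (interval -0.44 to 0.30) on the log2 scale for MC8 and 0.14 (interval -0.18 to 0.45) for FAMT, so that both intervals stay within 1.5-fold.

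WRKY53 (chromosome 4, 12392370 to 12393982), a WRKY factor of leaf senescence and defence that overlaps another gene, had 55.4, 53.0 and 54.8 CPM in PP2-A5oe, 76.7, 63.0 and 71.0 in pp2-a5, and 7.26, 6.195 and 10.6 in Col-0. Its log2 fold changes were 2.77 ± 0.13 in PP2-A5oe and 3.14 ± 0.13 in pp2-a5, and pp2-a5 was the higher of the lines by a difference of -0.37 (95% interval -0.55 to -0.18, adjusted p = 0.00421), PP2-A5oe minus pp2-a5. WRKY30 (chromosome 5, 8153115 to 8154710), a stress-induced WRKY factor, had 14.4, 14.2 and 12.4 CPM in PP2-A5oe, 18.3, 13.6 and 16.9 in pp2-a5, and 1.61, 2.01 and 2.99 in Col-0. Here the lines overlapped, with a difference of -0.25 (95% interval -0.54 to 0.05, adjusted p = 0.325). CCR4, a receptor-like kinase gene, averaged 2.04 ± 0.890 CPM in PP2-A5oe, 1.88 ± 0.202 CPM in pp2-a5 and 0.234 ± 0.121 CPM in Col-0. AT4G14450, of unknown function, averaged 7.28 ± 0.759 CPM in PP2-A5oe, 5.16 ± 0.716 CPM in pp2-a5 and 0.627 ± 0.186 CPM in Col-0. The peroxidase gene AT5G64100 averaged 4.26 ± 0.423 CPM in PP2-A5oe, 2.92 ± 1.05 CPM in pp2-a5 and 0.468 ± 0.242 CPM in Col-0. None of these 3 was called between the lines, with differences of 0.1 (interval -0.63 to 0.83), 0.49 (interval 0.08 to 0.9) and 0.55 (interval -0.01 to 1.11).

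The other loci of low Col-0 count in that rank included a gene of root hairs. RHS14, annotated as root hair specific, had 31 counts in PP2-A5oe and 30 in pp2-a5, against 2 in Col-0, with ratios of 15.6 (3.98 to 134.9) and 14.1 (3.58 to 122). The cupin gene AT5G38910, with 2 annotated transcripts, had 13 and 43 counts in PP2-A5oe and pp2-a5, against 1 in Col-0. AT2G35290, of unknown function, had 39 counts in PP2-A5oe and 11 in pp2-a5, against 1 in Col-0. The list of root tissue markers lay partly with them: 4 of 11 tested members lay above Col-0 and none below, and 8 were called higher and 1 lower in the mean of both lines (median log2 fold change 0.62). RHS19 of root hairs averaged 1.95 ± 0.314 CPM in PP2-A5oe, 1.77 ± 0.803 CPM in pp2-a5 and 0.513 ± 0.160 CPM in Col-0. PRP3, a wall protein of root hairs, averaged 17.3 ± 2.58 CPM in PP2-A5oe, 7.43 ± 0.752 CPM in pp2-a5 and 4.70 ± 0.447 CPM in Col-0, and the phosphate transporter gene PHT1;1 averaged 5.55 ± 1.27 CPM in PP2-A5oe, 10.2 ± 0.849 CPM in pp2-a5 and 3.27 ± 0.805 CPM in Col-0. The summed level of the 11 was 642 to 684 CPM in PP2-A5oe, 501 to 519 CPM in pp2-a5 and 467 to 473 CPM in Col-0. Most of this sum came from PYK10 and SCR. In PP2-A5oe, pp2-a5 and Col-0, PYK10 had 5554, 4528 and 4270 counts and SCR had 4262, 3543 and 2877. The other 13 of the 24 counted root markers were below the filter. Summed over 3 libraries, 11 of the 13 had more counts in PP2-A5oe than in Col-0 and 2, WER and GL2, had fewer, while in pp2-a5 8 had more, 3 fewer and 2 the same. Of the 11, EXPA7 and COBL9 of root hairs had 13 and 15 counts in PP2-A5oe, 5 and 17 counts in pp2-a5, and 1 and 2 counts in Col-0. The root epidermis genes WER and GL2 had 8 and 7 counts in PP2-A5oe, 9 and 5 counts in pp2-a5, and 17 and 16 counts in Col-0. These 4 were chosen after their values were seen. Without Col-0 replicate 3, 5 root markers lay above Col-0 and 1 below, 3 vascular markers lay below, and 4 guard cell and epidermal markers lay below. The part of root tissue in the results was not tested. Flower, pollen and seed markers, with 2 of 6 above Col-0 (AP1, with 3 transcripts, and AGL20, with 2), summed to 94.97 to 113 CPM in PP2-A5oe, 91.0 to 109 CPM in pp2-a5 and 83.4 to 92.6 CPM in Col-0. Vascular markers, with SWEET11 above and PP2-A1 below Col-0 among 18, summed to 1900 to 1958 CPM in PP2-A5oe, 1808 to 1914 CPM in pp2-a5 and 1856 to 1949 CPM in Col-0. Guard cell and epidermal markers, with TRY above and STOMAGEN and LP1 below among 20, summed to 1909 to 2131 CPM in PP2-A5oe, 1885 to 1953 CPM in pp2-a5 and 2169 to 2420 CPM in Col-0.

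**Figure D2:**
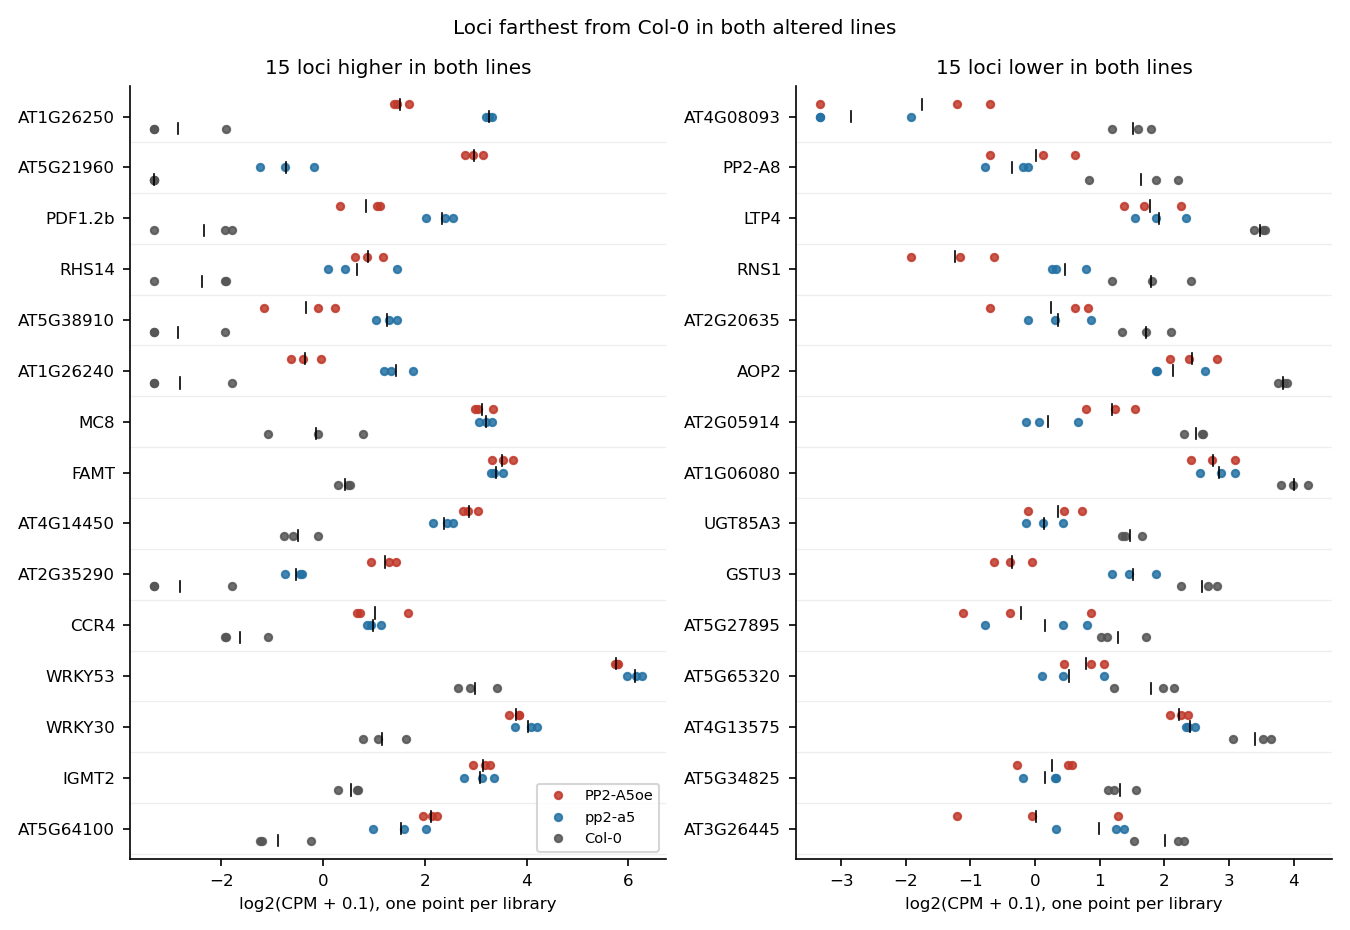
Points are single libraries of PP2-A5oe (red), pp2-a5 (blue) and Col-0 (grey) and black ticks group means, as log2(CPM + 0.1) on the x axis, for the 15 loci above (left) and the 15 below Col-0 (right) with the largest smaller fold change. For MC8, FAMT and IGMT2 the 2 lines lie together, while for AT5G21960 and GSTU3 they lie apart from each other.

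Fast stress regulators were the list with the highest share above Col-0. Of 20 tested members, 16 lay above and none below, and 19 were called, all of them higher in the mean of both lines. Calls outside the 16 rested mainly on PP2-A5oe. ERF104 had log2 fold changes of 1.74 in PP2-A5oe and -0.05 in pp2-a5, CAF1a had 4.06 and 0.20, and TCH4 had 3.31 and 0.26. The median log2 fold change was 1.81, with 2.62 in PP2-A5oe and 0.80 in pp2-a5. WRKY33 (chromosome 2, 16108235 to 16110766, overlapping other genes), the main activator of camalexin genes, had 303, 303 and 323 CPM in PP2-A5oe, 233, 246 and 222 in pp2-a5, and 73.0, 83.4 and 70.2 in Col-0. WRKY40 had 42.8, 44.7 and 54.3 CPM in PP2-A5oe, 20.9, 21.7 and 16.4 in pp2-a5, and 5.16, 4.35 and 5.98 in Col-0. In both genes each altered library stood at more than 2-fold the highest Col-0 value, and PP2-A5oe exceeded pp2-a5, by 0.41 (95% interval 0.27 to 0.54, adjusted p = 2.23e-05) for WRKY33 and by 1.27 (95% interval 1.03 to 1.5, adjusted p = 1.37e-10) for WRKY40. RRTF1, a redox-responsive factor, averaged 5.11 ± 0.568 CPM in PP2-A5oe, 1.23 ± 0.453 CPM in pp2-a5 and 0.234 ± 0.121 CPM in Col-0. Of the 16 members above Col-0, 14 also differed between the lines. The zinc finger genes STZ (ZAT10) and RHL41 (ZAT12), rapid responders to stress, are examples. STZ had 347, 348 and 333 CPM in PP2-A5oe, 42.5, 36.04 and 37.0 in pp2-a5, and 24.8, 23.6 and 27.1 in Col-0, and RHL41 averaged 20.5 ± 1.06 CPM in PP2-A5oe, 4.51 ± 0.432 CPM in pp2-a5 and 1.93 ± 0.248 CPM in Col-0. In STZ the pp2-a5 libraries lay just above Col-0, and the difference was 3.15 (95% interval 3.00 to 3.3, adjusted p = 3.02e-26).

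Salicylic acid genes stood farther out in pp2-a5, with a list median of 0.36 in PP2-A5oe and 0.97 in pp2-a5 on the log2 scale. Of 22 tested, 14 lay above and none below, 18 were called, all of them higher in the mean of both lines, and the median was 0.59. Some calls outside the 14 rested on pp2-a5. In PP2-A5oe and pp2-a5 the log2 fold changes were 0.02 and 1.12 for BGL2 (PR2), -0.06 and 1.63 for AT4G10500 (DLO1), and 0.09 and 0.57 for NPR4. FMO1 (-1.02 and 0.93) and GRX480 (-0.91 and 0.67) were not called. DMR6, an enzyme that breaks salicylic acid down, had 152, 139.7 and 153 CPM in PP2-A5oe, 288, 277 and 269.7 in pp2-a5, and 81.1, 74.5 and 82.2 in Col-0. WRKY70, a WRKY factor of this pathway, had 59.0, 67.1 and 62.4 CPM in PP2-A5oe, 107, 98.04 and 105 in pp2-a5, and 32.2, 33.3 and 34.5 in Col-0. No library of PP2-A5oe reached the pp2-a5 range in either gene, and the differences, PP2-A5oe minus pp2-a5, were -0.91 (95% interval -1.04 to -0.78, adjusted p = 4.19e-13) and -0.72 (95% interval -0.87 to -0.56, adjusted p = 8.63e-09). NIMIN-2, which binds the receptor NPR1, averaged 2.74 ± 0.821 CPM in PP2-A5oe, 2.91 ± 0.503 CPM in pp2-a5 and 1.42 ± 0.279 CPM in Col-0, with no call between the lines.

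The list of pattern receptors and early signalling components had medians of 0.47 in PP2-A5oe and 0.65 in pp2-a5. Of 29 tested, 18 lay above and none below, 22 were called, all of them higher, and the median was 0.56. Between the lines, 7 of the 18 differed. The receptor genes were divided. FLS2, CERK1, LYK4, PEPR1 and PEPR2 did not lie apart, with mean log2 fold changes of 0.01, 0.14, 0.54, 0.16 and 0.04. EFR, LYK5 and RLP23 lay above, with 0.71, 0.95 and 1.62. SOBIR1, the adaptor kinase of receptor-like proteins, which overlaps other genes, had 326, 343 and 316 CPM in PP2-A5oe, 311, 279 and 269 in pp2-a5, and 134, 137 and 147 in Col-0. PUB24, a ubiquitin ligase that damps immune signalling, had 20.4, 22.4 and 24.4 CPM in PP2-A5oe, 30.7, 24.8 and 21.9 in pp2-a5, and 10.6, 9.21 and 9.90 in Col-0. The altered libraries of both lines intermixed in PUB24, with a difference of -0.20 (95% interval -0.45 to 0.04, adjusted p = 0.332). NDR1, a membrane protein needed by several resistance proteins, had 41.3, 36.8 and 39.9 CPM in PP2-A5oe, 19.3, 15.2 and 20.6 in pp2-a5, and 7.74, 8.87 and 8.96 in Col-0, and was higher in PP2-A5oe by 1.09 (95% interval 0.87 to 1.32, adjusted p = 2.18e-09). Among cysteine-rich receptor-like kinases 9 of 27 lay above and 1 below, with 13 called higher and 1 lower (median 0.52). CRK41 (2 annotated transcripts) averaged 37.4 ± 3.26 CPM in PP2-A5oe, 27.3 ± 0.439 CPM in pp2-a5 and 9.78 ± 2.39 CPM in Col-0, CRK14 averaged 17.3 ± 1.67 CPM in PP2-A5oe, 22.3 ± 1.56 CPM in pp2-a5 and 6.45 ± 1.54 CPM in Col-0, and CRK12 (2 transcripts) averaged 2.66 ± 0.376 CPM in PP2-A5oe, 3.76 ± 0.534 CPM in pp2-a5 and 0.458 ± 0.255 CPM in Col-0. Genes of this family are clustered and alike, so their reads may be shared.

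Jasmonate synthesis genes above Col-0 included lipoxygenases and a cyclase. Of 19 tested genes of jasmonate synthesis and turnover, 7 lay above and none below, and 9 were called, all of them higher (median 0.30). LOX4, a lipoxygenase of the first step, had 30.0, 32.3 and 29.6 CPM in PP2-A5oe, 31.6, 25.8 and 28.6 in pp2-a5, and 10.96, 8.54 and 8.22 in Col-0. LOX3 had 32.0, 31.5 and 35.8 CPM in PP2-A5oe, 29.7, 30.3 and 27.7 in pp2-a5, and 17.58, 18.3 and 14.4 in Col-0. The lines overlapped in LOX4 and lay side by side in LOX3, with differences of 0.09 (interval -0.12 to 0.31) and 0.18 (interval -0.03 to 0.39). AOC3, an allene oxide cyclase, averaged 16.0 ± 2.48 CPM in PP2-A5oe, 7.67 ± 0.919 CPM in pp2-a5 and 4.40 ± 0.180 CPM in Col-0 and was higher in PP2-A5oe by 1.06 (95% interval 0.74 to 1.38, adjusted p = 4.71e-06).

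In jasmonate signalling 4 of 13 lay above and none below, and 5 were called, all higher (median 0.15). MYC2, the main transcription factor of jasmonate responses, which overlaps another gene, had 293, 288 and 272 CPM in PP2-A5oe, 142, 132 and 142 in pp2-a5, and 90.6, 95.6 and 95.4 in Col-0. Its relative MYC4 averaged 112 ± 4.69 CPM in PP2-A5oe, 107 ± 1.26 CPM in pp2-a5 and 88.9 ± 2.501 CPM in Col-0. The repressor gene JAZ5, with 3 transcripts, averaged 21.1 ± 1.49 CPM in PP2-A5oe, 12.8 ± 0.872 CPM in pp2-a5 and 7.22 ± 1.39 CPM in Col-0. MYC2 differed between the lines by 1.03 (95% interval 0.9 to 1.16, adjusted p = 1.05e-14), while the difference of 0.06 (interval -0.08 to 0.20) in MYC4 was not called.

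In the jasmonate and ethylene branch the loci above Col-0 were all defensins. Of 9 tested, 3 lay above (4 without Col-0 replicate 3) and none below, and 6 were called, all higher. The median was 0.71, with 0.12 in PP2-A5oe and 1.24 in pp2-a5. PDF1.2, a plant defensin, had 9.12, 7.03 and 9.51 CPM in PP2-A5oe, 29.0, 23.8 and 25.8 in pp2-a5, and 1.13, 1.51 and 2.80 in Col-0, and was lower in PP2-A5oe than in pp2-a5, with a difference of -1.61 (95% interval -1.91 to -1.31, adjusted p = 2.78e-10). PDF1.2b had 30 and 93 counts in PP2-A5oe and pp2-a5, against 2 in Col-0, with ratios of 15.1 (3.84 to 130.8) and 43.8 (11.8 to 367). PDF1.2, PDF1.2b and PDF1.2c are near identical, so how reads were divided among them is uncertain.

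Sulphur starvation genes lay above Col-0 in 8 of 11 cases and below in 1, with the same numbers called (median 0.68). SHM7, a serine hydroxymethyltransferase gene that responds to sulphur supply, had 873, 870.3 and 855 CPM in PP2-A5oe, 603, 557 and 578 in pp2-a5, and 332, 344 and 337 in Col-0. AT5G26220 (GGCT2;1, 2 transcripts), which recycles glutathione, had 50.5, 55.0 and 45.5 CPM in PP2-A5oe, 30.5, 29.3 and 28.8 in pp2-a5, and 14.995, 16.9 and 15.7 in Col-0. All 3 PP2-A5oe libraries exceeded all 3 of pp2-a5 in both, with differences of 0.58 (95% interval 0.46 to 0.70, adjusted p = 1.88e-09) and 0.77 (95% interval 0.58 to 0.96, adjusted p = 1.02e-07). AT1G04770, a tetratricopeptide repeat protein of this list that overlaps another gene, averaged 62.9 ± 8.77 CPM in PP2-A5oe, 52.1 ± 1.65 CPM in pp2-a5 and 28.8 ± 2.98 CPM in Col-0. In sulphate activation and reduction, 7 of 15 lay above and none below, and 7 were called, all higher (median 0.18). In the absence of Col-0 replicate 3, 1 of this list lay below. APR1, which reduces activated sulphate and overlaps another gene, had 289, 294.4 and 292 CPM in PP2-A5oe, 211, 204 and 203 in pp2-a5, and 108, 112 and 135 in Col-0. APR2 (2 transcripts, overlapping genes) averaged 36.9 ± 6.87 CPM in PP2-A5oe, 27.9 ± 1.66 CPM in pp2-a5 and 21.2 ± 3.26 CPM in Col-0, and the APS kinase gene APK averaged 53.9 ± 2.89 CPM in PP2-A5oe, 42.2 ± 3.17 CPM in pp2-a5 and 34.0 ± 5.48 CPM in Col-0.

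Glucosinolate genes split by precursor. Aliphatic genes lay below Col-0 in 11 of 20 cases and above in none. In this list 12 were called, all lower in the mean of both lines, and the median was -0.45. MYB29, a regulator of the methionine-derived pathway, had 24.4, 18.9 and 22.3 CPM in PP2-A5oe, 9.89, 12.4 and 14.4 in pp2-a5, and 36.6, 34.0 and 36.2 in Col-0. BCAT4, the aminotransferase of the first step, which overlaps another gene, had 24.9, 22.2 and 18.8 CPM in PP2-A5oe, 16.5, 14.9 and 17.2 in pp2-a5, and 33.1, 32.5 and 44.6 in Col-0. In both genes pp2-a5 was farther below Col-0 than PP2-A5oe, by 0.84 (95% interval 0.56 to 1.12, adjusted p = 1.88e-05) and 0.44 (95% interval 0.16 to 0.72, adjusted p = 0.0298). AOP2, a side chain enzyme annotated here as a transcribed pseudogene with 2 transcripts, had 5.14, 4.15 and 6.92 CPM in PP2-A5oe, 3.57, 6.12 and 3.595 in pp2-a5, and 14.4, 13.4 and 14.8 in Col-0; its lines overlapped.

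Genes of tryptophan and indolic glucosinolate synthesis went the other way: 8 of 18 lay above and none below, and 11 were called, all higher (median 0.25). CYP81F2, which modifies indolic glucosinolates for defence at the cell wall, had 19.9, 26.0 and 22.8 CPM in PP2-A5oe, 28.2, 24.3 and 20.9 in pp2-a5, and 7.26, 7.20 and 6.91 in Col-0. IGMT2, a methyltransferase of the next step with 2 transcripts, had 7.62, 9.01 and 9.68 CPM in PP2-A5oe, 10.2, 8.60 and 6.72 in pp2-a5, and 1.13, 1.51 and 1.49 in Col-0. IGMT1 averaged 19.97 ± 2.96 CPM in PP2-A5oe, 18.1 ± 1.46 CPM in pp2-a5 and 7.41 ± 0.983 CPM in Col-0. The lines lay in 1 range in all 3, with differences of -0.1 (interval -0.34 to 0.15), 0.04 (interval -0.32 to 0.41) and 0.14 (interval -0.13 to 0.40); IGMT1 and IGMT2 belong to a cluster of close copies that may share reads. Of 8 camalexin genes, 3 lay above and 1 below, with 4 called higher and 1 lower (median 0.15, with -0.06 in PP2-A5oe and 0.75 in pp2-a5). The 1 below was CYP71A13, an early enzyme of camalexin synthesis that overlaps another gene, with 48.4, 42.0 and 52.4 CPM in PP2-A5oe, 20.6, 24.6 and 20.6 in pp2-a5, and 59.0, 58.6 and 56.8 in Col-0. GSTF7, of a close pair with GSTF6, averaged 39.9 ± 2.11 CPM in PP2-A5oe, 86.8 ± 9.02 CPM in pp2-a5 and 31.7 ± 3.80 CPM in Col-0.

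**Figure D3:**
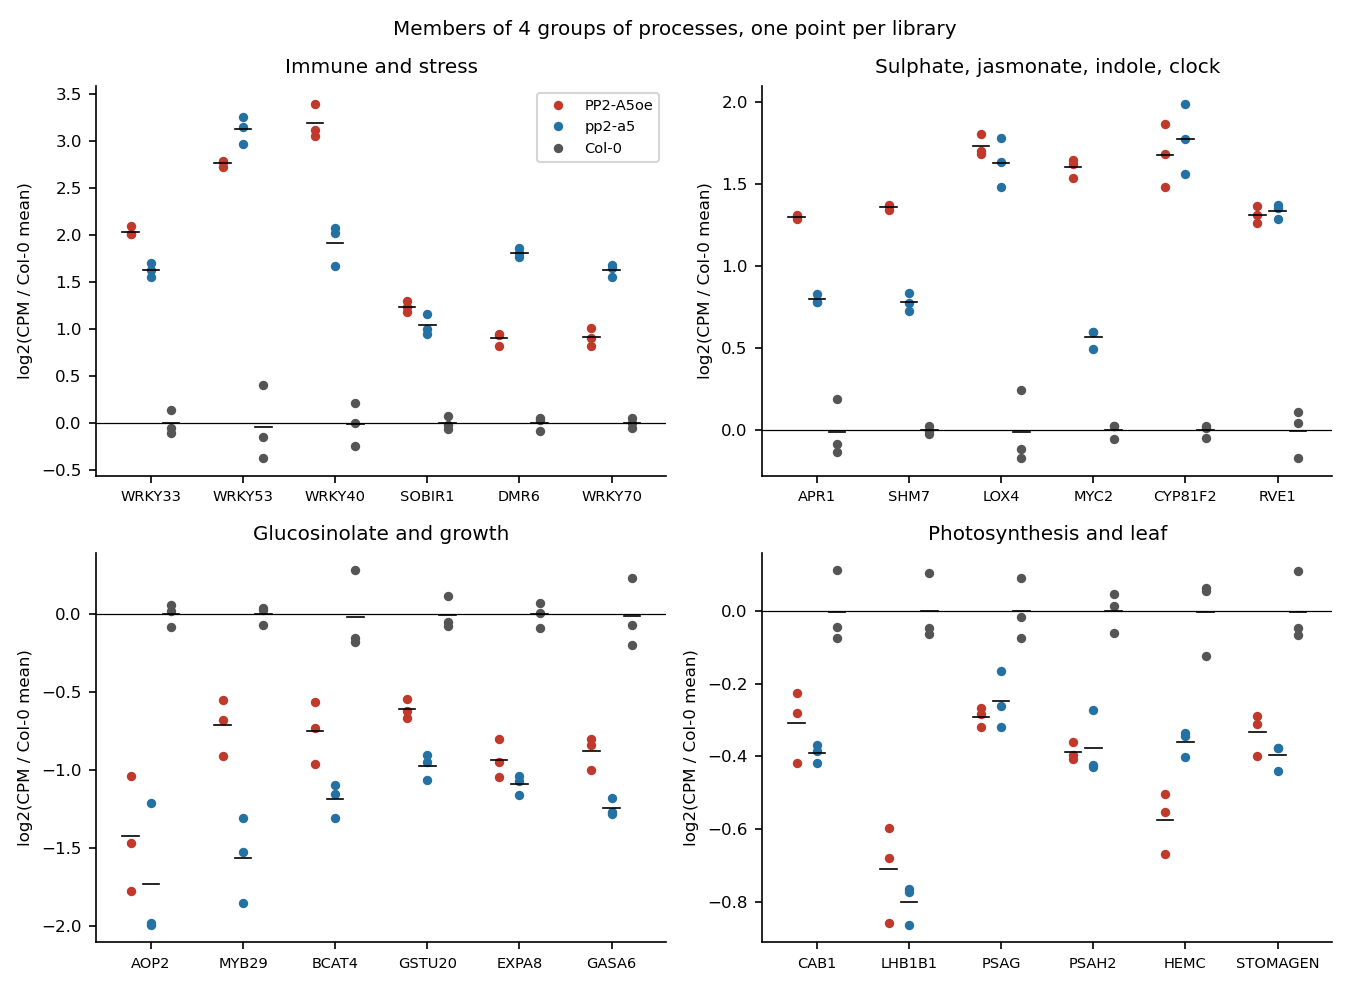
Points are single libraries of PP2-A5oe (red), pp2-a5 (blue) and Col-0 (grey) as log2 of CPM over the Col-0 mean, for 6 loci in each of 4 panels, with black ticks at group means. RVE1, LOX4 and PSAH2 stand at the same place in both lines, whereas WRKY40, MYC2, DMR6 and MYB29 show a step between PP2-A5oe and pp2-a5.

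Photosynthesis genes were shifted little but widely. Of 37 tested nuclear genes for light harvesting, photosystems and Rubisco, 21 lay below Col-0 and none above. In this list 26 were called, all lower in the mean of both lines, and the median was -0.21. Together the 37 summed to 117323 to 127931 CPM in PP2-A5oe, 113739 to 122108 CPM in pp2-a5 and 138217 to 145392 CPM in Col-0, so these markers of green leaf were abundant in every library. LHB1B1 (LHCB1.4), a chlorophyll-binding protein of the light-harvesting complex, had 571, 540.2 and 477 CPM in PP2-A5oe, 506, 508 and 475 in pp2-a5, and 827, 836 and 929 in Col-0. CAB1 (LHCB1.3), of the same complex, had 18609.8, 17915 and 16294 CPM in PP2-A5oe, 16684, 16865 and 16301 in pp2-a5, and 21114, 20679.7 and 23515 in Col-0. PSAH2, a photosystem I subunit, had 2224, 2278 and 2205 CPM in PP2-A5oe, 2422, 2173 and 2179.6 in pp2-a5, and 2951, 2804 and 3024 in Col-0. The highest altered library stood under the lowest of Col-0 in each, and the differences between the lines, 0.09 (interval -0.04 to 0.23), 0.08 (interval -0.03 to 0.20) and -0.01 (interval -0.13 to 0.1), were not called; CAB1 and PSAH2 overlap other genes, and LHCB1 copies are nearly identical. Per kilobase of exon, the 5 highest loci below Col-0 were all of this kind. Beside CAB1 they were the photosystem I genes PSAG (-0.27 ± 0.05 on the log2 scale), PSAE-1 (-0.31 ± 0.06) and PSAD-1 (-0.21 ± 0.05) and the photosystem II gene PSBTN (-0.32 ± 0.06). Of 19 chlorophyll genes, 5 lay below and 2 above, with 7 called lower and 3 higher (median -0.13). The numbers without Col-0 replicate 3 were 9 below, 2 above and a median of -0.24. HEMC, of tetrapyrrole synthesis, averaged 303 ± 17.7 CPM in PP2-A5oe, 351 ± 8.69 CPM in pp2-a5 and 451 ± 32.1 CPM in Col-0 and GSA2, of an earlier step, averaged 102 ± 1.36 CPM in PP2-A5oe, 108 ± 8.22 CPM in pp2-a5 and 135 ± 10.9 CPM in Col-0. CLH1, a chlorophyllase, averaged 158 ± 4.54 CPM in PP2-A5oe, 163 ± 8.40 CPM in pp2-a5 and 127 ± 9.50 CPM in Col-0.

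Of the 5 highest loci above Col-0 per kilobase, 3 were higher in pp2-a5 than in PP2-A5oe. AT5G42530, of unknown function, had 3476, 3579 and 3076 CPM in PP2-A5oe, 6383, 5973 and 5903 in pp2-a5, and 2279, 2529 and 2345 in Col-0, and ECS1, a wall protein gene, averaged 3871 ± 258 CPM in PP2-A5oe, 5269 ± 355 CPM in pp2-a5 and 2671 ± 17.41 CPM in Col-0. GSTF2, a glutathione transferase that overlaps another gene, averaged 1129 ± 55.4 CPM in PP2-A5oe, 1757 ± 82.0 CPM in pp2-a5 and 689.6 ± 40.9 CPM in Col-0. In these 3 all pp2-a5 libraries exceeded all of PP2-A5oe. THI1, of thiamine synthesis, averaged 3154 ± 43.2 CPM in PP2-A5oe, 2904 ± 27.0 CPM in pp2-a5 and 2692 ± 28.0 CPM in Col-0, and the beta-amylase gene CT-BMY, which overlaps other genes, averaged 2998 ± 51.8 CPM in PP2-A5oe, 2342 ± 52.7 CPM in pp2-a5 and 1970.2 ± 23.2 CPM in Col-0.

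Cell wall genes leaned downward: 9 of 39 tested expansin and xyloglucan genes lay below and 3 above, with 14 called lower and 7 higher (median -0.17). Leaving Col-0 replicate 3 out gave 11 below and 6 above. EXPA8, an expansin that loosens the wall, had 176, 158 and 149 CPM in PP2-A5oe, 149, 146 and 137 in pp2-a5, and 308, 288 and 322 in Col-0. The difference between the lines, 0.16 (interval 0.02 to 0.30), was not called. EXPA21 averaged 1.105 ± 0.547 CPM in PP2-A5oe, 1.51 ± 0.366 CPM in pp2-a5 and 2.62 ± 0.341 CPM in Col-0 and XTH30, a xyloglucan endotransglucosylase gene, 7.72 ± 0.506 CPM in PP2-A5oe, 7.88 ± 0.850 CPM in pp2-a5 and 5.27 ± 0.656 CPM in Col-0. Of 25 gibberellin and brassinosteroid genes 6 lay above and 2 below. GASA6, a gibberellin-regulated peptide gene that overlaps another, had 375, 384 and 336 CPM in PP2-A5oe, 296, 276 and 278 in pp2-a5, and 637, 585 and 787 in Col-0, with Col-0 replicate 3 the highest. GID1B, a gibberellin receptor, averaged 32.3 ± 2.62 CPM in PP2-A5oe, 36.6 ± 1.74 CPM in pp2-a5 and 17.5 ± 1.49 CPM in Col-0, and GASA1 (2 transcripts) 6.10 ± 1.69 CPM in PP2-A5oe, 5.11 ± 0.666 CPM in pp2-a5 and 2.19 ± 0.569 CPM in Col-0.

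Of 10 clock genes 5 lay above and 1 below, with 5 called higher and 2 lower (median 0.13); without Col-0 replicate 3, 3 lay below. RVE1 (chromosome 5, 5690225 to 5692992, 2 transcripts, overlapping another gene), a MYB-like factor of the clock that raises auxin levels, had 729, 705 and 755 CPM in PP2-A5oe, 715, 759.9 and 749 in pp2-a5, and 302, 317 and 261 in Col-0. PRR7 (2 transcripts), a clock repressor, had 40.1, 31.5 and 46.0 CPM in PP2-A5oe, 32.9, 40.8 and 37.4 in pp2-a5, and 12.9, 14.6 and 9.90 in Col-0. The altered lines lay in 1 range in both, with differences of -0.02 (interval -0.15 to 0.11) and 0.09 (interval -0.15 to 0.32). GI, which acts in the clock and in flowering, averaged 11.8 ± 1.46 CPM in PP2-A5oe, 5.68 ± 1.104 CPM in pp2-a5 and 1.53 ± 0.875 CPM in Col-0, and differed between the lines by 1.05 (95% interval 0.65 to 1.45, adjusted p = 0.000176). The labels used here give no hour of harvest for the groups.

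Senescence genes lay above in 13 of 22 cases and below in 3, with 15 called higher and 3 lower (median 0.55). BCB, a copper-binding protein, had 45.9, 44.9 and 44.3 CPM in PP2-A5oe, 19.0, 19.5 and 16.7 in pp2-a5, and 5.64, 5.86 and 5.04 in Col-0. NAP, a NAC factor that drives leaf senescence, had 48.2, 52.8 and 56.7 CPM in PP2-A5oe, 80.9, 70.3 and 75.7 in pp2-a5, and 22.4, 17.1 and 23.3 in Col-0. The lines stood in opposite order in these genes, with differences of 1.29 (95% interval 1.08 to 1.5, adjusted p = 4.93e-12) and -0.53 (95% interval -0.71 to -0.34, adjusted p = 4.26e-05). Of 22 phenylpropanoid genes 10 lay above and none below, and 11 were called, all higher (median 0.21). Without Col-0 replicate 3, 11 lay above and 2 below. TT5, the chalcone isomerase of flavonoids, averaged 44.1 ± 1.68 CPM in PP2-A5oe, 40.1 ± 0.447 CPM in pp2-a5 and 26.8 ± 1.99 CPM in Col-0, AT4G36220 (FAH1), of lignin synthesis, 241 ± 11.9 CPM in PP2-A5oe, 218 ± 7.54 CPM in pp2-a5 and 149 ± 4.33 CPM in Col-0, and OMT1, a methyltransferase of the pathway, 214 ± 11.4 CPM in PP2-A5oe, 215 ± 6.35 CPM in pp2-a5 and 168 ± 4.56 CPM in Col-0.

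Abscisic acid genes lay above in 6 of 13 cases and below in 1, with 7 called higher and 1 lower (median 0.42). NCED3, the key enzyme of abscisic acid synthesis, had 68.0, 63.3 and 66.2 CPM in PP2-A5oe, 30.8, 40.01 and 37.4 in pp2-a5, and 21.6, 21.4 and 20.9 in Col-0. HAI1 (2 transcripts), a phosphatase of the feedback, averaged 25.7 ± 3.06 CPM in PP2-A5oe, 17.7 ± 2.56 CPM in pp2-a5 and 10.06 ± 1.34 CPM in Col-0, and the NAC gene RD26 (3 transcripts) 8.89 ± 1.83 CPM in PP2-A5oe, 18.6 ± 0.715 CPM in pp2-a5 and 5.33 ± 1.13 CPM in Col-0. Of 17 ethylene genes 4 lay above and none below, with 4 called higher and 2 lower; without Col-0 replicate 3, 1 lay below. ACS6, of ethylene precursor synthesis, averaged 86.1 ± 1.96 CPM in PP2-A5oe, 25.3 ± 1.12 CPM in pp2-a5 and 19.6 ± 0.618 CPM in Col-0. EFE, an ethylene-forming enzyme, averaged 269 ± 7.76 CPM in PP2-A5oe, 292 ± 11.7 CPM in pp2-a5 and 220.5 ± 23.1 CPM in Col-0.

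Of 19 phosphate starvation genes 6 lay above and 1 below, with 10 called higher and 3 lower. The median was 0.21, with 0.03 in PP2-A5oe and 0.62 in pp2-a5. G3Pp1 (3 transcripts), a putative glycerol phosphate transporter, had 238, 230.0 and 237 CPM in PP2-A5oe, 255, 244 and 249.8 in pp2-a5, and 100.5, 90.8 and 113 in Col-0. The difference between the lines, -0.09 (interval -0.23 to 0.05), was not called. SRG3 (GDPD1), a lipid-degrading phosphodiesterase that overlaps another gene, averaged 92.0 ± 2.75 CPM in PP2-A5oe, 164 ± 12.2 CPM in pp2-a5 and 50.8 ± 0.991 CPM in Col-0. Of 19 nitrate and ammonium genes 6 lay above and none below, with 8 called higher and 2 lower. The median was 0.24, with 0.25 in PP2-A5oe and -0.02 in pp2-a5. Without Col-0 replicate 3, 7 lay above and 3 below. The nitrate transporters NRT1.1 (0.49 ± 0.06) and NRT1.5 (0.60 ± 0.09) and the ammonium transporter AMT1;2 (0.69 ± 0.05) led them. Of 34 glutathione transferases 8 lay above and 7 below, with 11 called higher and 9 lower; GSTU20 averaged 87.1 ± 3.71 CPM in PP2-A5oe, 67.8 ± 3.73 CPM in pp2-a5 and 133 ± 9.80 CPM in Col-0. Beyond those marked in the text, RRTF1, WRKY40, PSAG, PSAE-1, HEMC, EXPA21, NRT1.5, FER4, RHS19, PP2-A1, AT2G20635, AT2G05914, AT4G13575, AT5G27895 and AT3G26445 overlap another annotated gene. PSBTN, AT2G05914, AT4G13575 and AT5G65320 have 2 transcripts. The sources used here give neither strand nor counting tool, so reads of overlapping genes cannot be told apart.

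**Figure D4:**
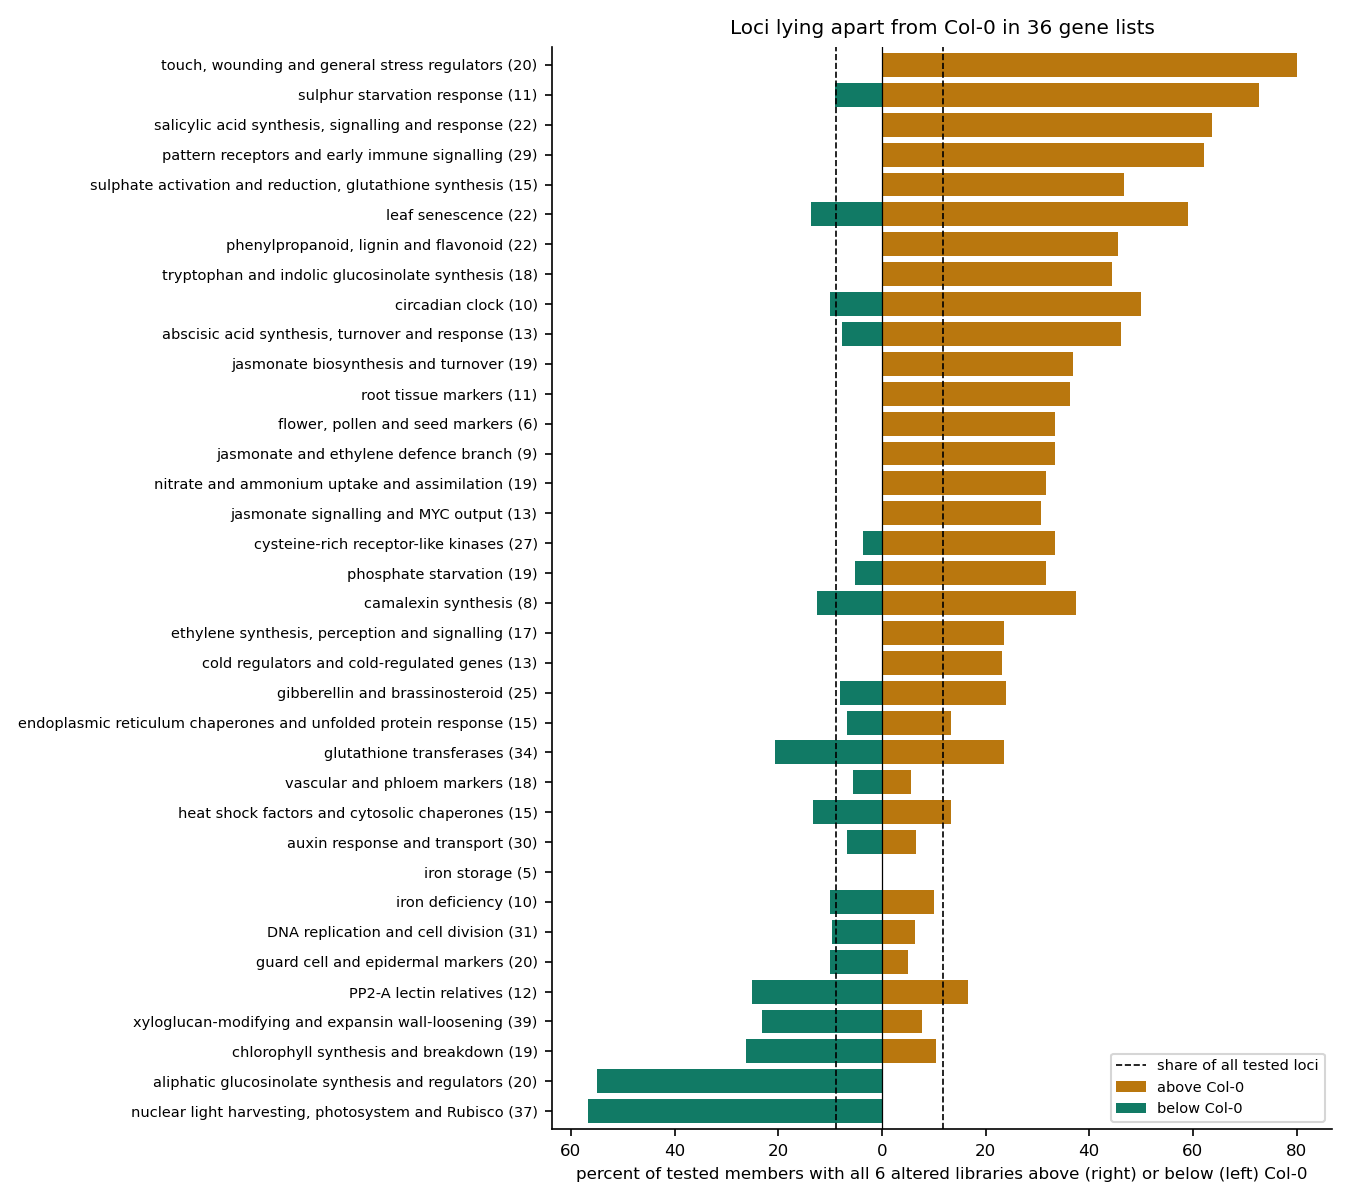
Bars give, for each of 36 gene lists with its number of tested members in brackets, the percent of members with all 6 altered libraries above (right, ochre) or below Col-0 (left, green). Dashed lines mark the shares of all tested loci, 11.7% above and 8.82% below; the touch and wound list reaches 80% above, and the light harvesting list has members only on the left.

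Among the loci below Col-0, the 15 farthest in both lines were mostly of low count. LTP4, a lipid transfer protein, had 2.49, 4.69 and 3.11 CPM in PP2-A5oe, 3.57, 4.96 and 2.81 in pp2-a5, and 11.6, 10.4 and 11.4 in Col-0. PP2-A8 (chromosome 5, 18187630 to 18189523), a lectin relative of PP2-A5, had 0.994, 1.44 and 0.519 CPM in PP2-A5oe, 0.487, 0.827 and 0.782 in pp2-a5, and 3.55, 4.52 and 1.68 in Col-0. AT1G06080 (2 transcripts), a delta 9 desaturase, had 8.45, 5.23 and 6.57 CPM in PP2-A5oe, 8.43, 7.27 and 5.78 in pp2-a5, and 13.9, 15.7 and 18.5 in Col-0. In these 3 the lines overlapped. The transcribed pseudogene AT4G08093 (5 transcripts) had 0.331, 0 and 0.519 CPM in PP2-A5oe, 0, 0.165 and 0 in pp2-a5, and 2.90, 2.18 and 3.36 in Col-0. RNS1, a secreted ribonuclease, and GSTU3, a glutathione transferase, also lay below in both lines but farther in PP2-A5oe, as given with the differences between the lines. AT4G13575, AT2G20635, AT2G05914, UGT85A3, AT5G27895, AT5G65320, AT5G34825 and AT3G26445 completed this rank, with log2 fold changes of -1.14 ± 0.16, -1.42 ± 0.31, -1.82 ± 0.24, -1.25 ± 0.31, -1.22 ± 0.37, -1.2 ± 0.29, -1.13 ± 0.32 and -1.42 ± 0.32. Of the 12 tested PP2 lectin genes, 3 lay below and 2 above Col-0, and 3 were called, all lower. Over all tested loci 20.5% lay apart and 26.8% were called. PP2-A11 averaged 25.7 ± 2.39 CPM in PP2-A5oe, 21.5 ± 1.48 CPM in pp2-a5 and 33.5 ± 3.21 CPM in Col-0, and PP2-B11, of the related B group, averaged 6.73 ± 0.364 CPM in PP2-A5oe, 6.07 ± 0.492 CPM in pp2-a5 and 4.64 ± 0.538 CPM in Col-0.

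The lines themselves differed at 1769 of 13975 tested loci (12.7%), with 1007 higher (7.21%) and 762 lower (5.45%) in PP2-A5oe than in pp2-a5. Of the 2868 loci lying apart from Col-0, 612 did (21.3%). At 6 of the 612 the count filter was reached in libraries of 1 altered line only, which favours a difference between the lines. Those of them named below are given without a test. Among the 1635 loci above Col-0, 538 differed between the lines (32.9%), 357 higher and 181 lower in PP2-A5oe. Among the 1233 below, 74 differed (6%), 30 higher and 44 lower in PP2-A5oe. The rule drew on the same altered libraries, so these shares can depart from that of all loci through the selection. A missed threshold does not show equal levels, so the intervals were used for that: for 2149 of the 2868 loci (74.9%) the 95% interval of the difference lay within 1.5-fold either way. That held for 1053 loci below Col-0 (85.4%), 1096 above (67.0%) and 66.7% of all tested loci. The share above Col-0 was thus near that of all loci.

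The largest differences were those of loci far higher in PP2-A5oe. DIC2 (chromosome 4, 12686459 to 12687650), a dicarboxylate carrier of the mitochondrion, had 471, 475 and 461 CPM in PP2-A5oe, 35.7, 34.2 and 28.5 in pp2-a5, and 14.7, 15.9 and 20.2 in Col-0. CBF2 (chromosome 4, 13015250 to 13016235), an activator of cold-regulated genes, had 52.4, 49.2 and 48.6 CPM in PP2-A5oe, 5.19, 3.64 and 3.44 in pp2-a5, and 1.77, 3.35 and 2.99 in Col-0. At both loci the pp2-a5 libraries lay above those of Col-0, with log2 fold changes of 0.96 ± 0.11 for DIC2 and 0.60 ± 0.27 for CBF2. For CBF2 the margin was narrow, with 3.44 CPM in the lowest pp2-a5 library and 3.35 CPM in the highest of Col-0. PP2-A5oe lay far above both groups, with differences of 3.84 (95% interval 3.67 to 4.01, adjusted p = 5.71e-27) and 3.61 (95% interval 3.31 to 3.91, adjusted p = 8.18e-20). AT4G29780, annotated as a nuclease, had 289, 277 and 261 CPM in PP2-A5oe, 26.9, 20.01 and 23.0 in pp2-a5, and 15.5, 17.41 and 13.3 in Col-0, and RTFL12, a small peptide gene, 23.2, 27.9 and 20.9 CPM in PP2-A5oe, 2.595, 2.48 and 1.56 in pp2-a5, and 1.13, 1.34 and 0.747 in Col-0. Their differences were 3.56 (95% interval 3.38 to 3.75, adjusted p = 1.42e-25) and 3.43 (95% interval 3.03 to 3.83, adjusted p = 1.51e-15). AT5G21960 passed the count filter through PP2-A5oe only, and its difference of 3.80 is a description. Of 13 cold genes, CBF2, STZ and RHL41 lay above Col-0 in both lines (5 without Col-0 replicate 3) and none below, with 7 called higher and 1 lower in the mean of both. STZ and RHL41 were also counted among the stress regulators.

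In the opposite direction, among loci called between the lines, PP2-A5oe was lowest against pp2-a5 at PDF1.2c, AT5G39520, GSTU3, AT1G26240 and RNS1. PDF1.2c had 1.33, 0.721 and 0.519 CPM in PP2-A5oe, 3.73, 3.64 and 3.75 in pp2-a5, and 0.484, 0 and 0.187 in Col-0, with a difference of -2.08. At AT1G26240 the difference was -1.90. Both loci passed the count filter through pp2-a5 only, so these differences are descriptions. AT5G39520, of unknown function, overlapping another gene, had 1.49, 0.901 and 1.21 CPM in PP2-A5oe, 5.19, 5.29 and 4.22 in pp2-a5, and 5.64, 6.03 and 7.10 in Col-0, with a difference of -2.00 (95% interval -2.61 to -1.38, adjusted p = 5.95e-06). It lay below Col-0 in both lines, and PP2-A5oe lay below all pp2-a5 libraries. GSTU3 had 0.663, 0.541 and 0.864 CPM in PP2-A5oe, 3.57, 2.65 and 2.19 in pp2-a5, and 6.29, 4.69 and 6.91 in Col-0, with a difference of -1.98 (95% interval -2.81 to -1.15, adjusted p = 0.000544). RNS1 had 0.166, 0.541 and 0.346 CPM in PP2-A5oe, 1.62, 1.16 and 1.09 in pp2-a5, and 3.39, 2.18 and 5.23 in Col-0, with a difference of -1.84 (95% interval -3.08 to -0.59, adjusted p = 0.0423).

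**Figure D5:**
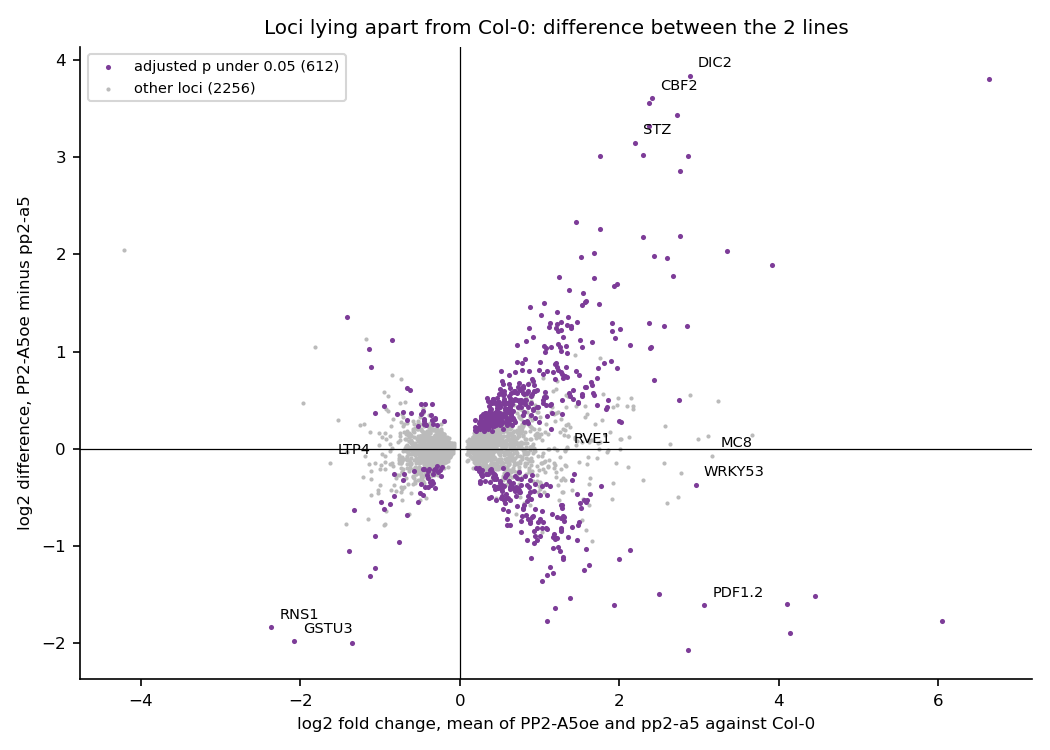
Each point is 1 of the 2868 loci lying apart from Col-0, by the log2 fold change averaged over both lines against Col-0 (x axis) and the log2 difference PP2-A5oe minus pp2-a5 (y axis); the 612 with an adjusted p under 0.05 are purple. Points above Col-0 fan out on both sides of 0, with DIC2 at 3.84 and PDF1.2 at -1.61, while those below stay close to 0 apart from a few such as GSTU3 and RNS1.

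The edge of the rule ran through small shifts, apart from AT1G03240. That locus was far higher in PP2-A5oe only, and was outside because pp2-a5 libraries tied with Col-0 at 0 CPM. Just inside on the upper side were SMT2 of sterol synthesis, with 327, 331 and 301 CPM in PP2-A5oe, 294.4, 299 and 300.5 in pp2-a5, and 271, 269 and 294.3 in Col-0, and the zinc finger gene AT5G62460 (3 transcripts). Just outside were AT4G34920, with 85.2, 87.6 and 76.9 CPM in PP2-A5oe, 82.9, 79.9 and 95.4 in pp2-a5, and 72.7, 73.3 and 76.9 in Col-0, and AT1G03240, with 204 counts in PP2-A5oe, 1 in pp2-a5 and 0 in Col-0. On the lower side mtACP2, which overlaps another gene, had 72.1, 77.3 and 69.0 CPM in PP2-A5oe, 77.9, 68.9 and 73.6 in pp2-a5, and 82.7, 77.9 and 90.6 in Col-0, and EXP3 (2 transcripts) was the other just inside. AT3G29680, an acyltransferase gene, had 10.6, 9.91 and 11.2 CPM in PP2-A5oe, 12.5, 11.2 and 14.4 in pp2-a5, and 14.995, 16.4 and 14.4 in Col-0 and was just outside with the pectate lyase gene AT1G67750. The gap between the nearest altered and Col-0 library at these loci was at most 0.000427 on the log2 scale in either direction, and 0 at AT1G03240.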

How the data were processed

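RNA-seq libraries of 9 rosette samples were used, with groups taken from the sample titles. The values are raw read counts per locus as deposited by the authors; alignment was to TAIR10, per the submitters' processing notes, and the sources used here name no aligner, counter or strand setting. The 294 loci listed in 2 entries were summed, giving 22155 loci, of which 21952 matched the RefSeq annotation. Loci passing a minimum count of 10 (total 15) were fitted with edgeR 4.0.16 in R 4.3.3 (TMM scaling, quasi-likelihood test, robust, 3 group means, 6 residual degrees of freedom), with Benjamini-Hochberg adjustment over 13975 loci and a threshold of 0.05. A locus was kept when all 6 altered libraries lay strictly above or below all 3 Col-0 libraries in TMM-scaled CPM, which is a description without a test. Intervals are at 95%; ratios to 1 to 3 Col-0 counts carry exact counting intervals, and ratios to 0 use a floor of 3 counts over the group; both cover counting error only. Named were the 15 loci farthest from Col-0 in each direction, by the smaller of their 2 fold changes. These had a mean of at least 1 CPM on the higher side. Added were up to 3 per gene list, the 5 most abundant per kilobase in each direction, and those at the edge of the rule. The 5 with the largest difference between the lines each way, among loci called between them, were named too. Members and the 36 gene lists were chosen with earlier results of these data known. Some genes stand on more than 1 list, such as WRKY33, WRKY53, STZ and RHL41, so the lists are not independent. Alternatives were scaling, filter, libraries left out, a replicate block, locus sets, DESeq2 1.42.0 and limma 3.58.1 (voom). The fit was tested on simulated data. PP2-A5 is not analysed here, and 1 locus that the naming rule picks is not reported here.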

Additional observations from a re-analysis of the deposited data

Results flagged for a closer look

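These are the 5 largest differences in each direction among loci lying apart from Col-0 that were called between the lines. Passing the direct test between the lines was thus a condition of the choice. On the log2 scale, PP2-A5oe minus pp2-a5, the loci higher in PP2-A5oe were DIC2 (3.84), AT5G21960 (3.80), CBF2 (3.61), AT4G29780 (3.56) and RTFL12 (3.43). The loci lower in PP2-A5oe were PDF1.2c (-2.08), AT5G39520 (-2.00), GSTU3 (-1.98), AT1G26240 (-1.90) and RNS1 (-1.84). All 3 PP2-A5oe libraries lay on one side of all 3 pp2-a5 libraries in each of the 10. At 3 of them the test adds nothing, because they reached the count filter in libraries of 1 altered line only, which favours a difference. Of 8 such loci lying apart, 6 were called between the lines. AT5G21960 passed through PP2-A5oe, with 135 counts in PP2-A5oe and 10 in pp2-a5. PDF1.2c and AT1G26240 passed through pp2-a5, the first with 15 counts in PP2-A5oe against 69 in pp2-a5, the second with 12 against 49.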

How the results depend on the processing

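Of the loci lying apart, 1635 higher and 1233 lower, all alternative scalings and filters gave counts within 1.5-fold, among them 1743 and 1051 with library totals alone. Restricting to loci with 1 annotated transcript and no overlap tested fewer loci and gave 2119 called for the mean of both lines, 871 apart above and 668 apart below Col-0, 378 called between the lines, and 2032 and 1640 called for PP2-A5oe and pp2-a5 against Col-0. Treating the 6 altered libraries as 1 group gave 2365 called in place of 3751, and a further 2-fold requirement gave 468 called and 108 between the lines. Leaving out 1 library gave 2859 to 3789 called for the mean, 1757 to 2137 apart above, 1318 to 2078 apart below, 501 to 847 called between the lines, 2818 to 3675 called for PP2-A5oe and 2255 to 3145 for pp2-a5. Without Col-0 replicate 3 the loci below Col-0 numbered 2078, and 2217 without it and PP2-A5oe replicate 2. Replicate numbers did not pair the libraries (correlations of same-numbered deviations -0.38 to 0.16), and with a replicate block 3392 loci were called and 554 between the lines. DESeq2 called 2776 and 479, and limma-voom 3705 and 606. Of 2942 alternative values for the named loci none reversed, 74 over 31 loci were no longer called and 3 became called; the cause was not tested. The list medians of auxin, gibberellin and PP2 lectin genes, all within 0.1 of 0, changed sign over 3 other scalings and without Col-0 replicate 3 (alone or with PP2-A5oe replicate 2), and those beyond 0.1 did not. Depth limits loci such as AT1G26240, with at most 1 Col-0 count.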

Other observations

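Other processes lay nearer the share of all loci. Of 30 auxin genes 2 lay above (6 without Col-0 replicate 3) and 2 below Col-0, with 4 called higher and 3 lower in the mean of both lines. The auxin-induced IAA1 averaged 25.5 ± 4.27 CPM in PP2-A5oe, 20.4 ± 0.933 CPM in pp2-a5 and 13.5 ± 2.31 CPM in Col-0, and the auxin synthesis gene YUC2 (3 transcripts) averaged 8.81 ± 0.187 CPM in PP2-A5oe, 8.43 ± 0.853 CPM in pp2-a5 and 5.42 ± 2.28 CPM in Col-0. AFB2, an auxin receptor, averaged 85.5 ± 2.45 CPM in PP2-A5oe, 84.9 ± 6.84 CPM in pp2-a5 and 106 ± 4.42 CPM in Col-0. Of 31 genes of DNA replication and cell division 2 lay above and 3 below. Both above were inhibitors of cyclin-dependent kinases, KRP2 (2 transcripts), with 10.7 ± 0.782 CPM in PP2-A5oe, 10.01 ± 1.92 CPM in pp2-a5 and 7.28 ± 0.860 CPM in Col-0, and ICK1, with 31.3 ± 3.76 CPM in PP2-A5oe, 28.0 ± 2.76 CPM in pp2-a5 and 22.6 ± 0.845 CPM in Col-0. The cyclin gene CYCD3;1, which overlaps another gene, averaged 80.3 ± 3.32 CPM in PP2-A5oe, 80.4 ± 5.003 CPM in pp2-a5 and 102 ± 0.995 CPM in Col-0.

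Of 15 genes for chaperones of the endoplasmic reticulum 2 lay above and 1 below. BZIP60, a factor of the unfolded protein response, averaged 82.0 ± 4.92 CPM in PP2-A5oe, 79.4 ± 3.49 CPM in pp2-a5 and 48.2 ± 7.48 CPM in Col-0, and the oxidoreductase gene ERO1 6.46 ± 1.64 CPM in PP2-A5oe, 6.44 ± 0.576 CPM in pp2-a5 and 3.92 ± 0.814 CPM in Col-0. PDIL1-1 (2 transcripts), below Col-0 in all 6 libraries, was not called and averaged 1.78 ± 0.217 CPM in PP2-A5oe, 1.501 ± 0.202 CPM in pp2-a5 and 2.33 ± 0.374 CPM in Col-0. Of 15 heat shock genes 2 lay above and 2 below, with 3 called each way. HSF A4A, a heat shock factor, averaged 29.7 ± 4.16 CPM in PP2-A5oe, 20.4 ± 1.53 CPM in pp2-a5 and 8.45 ± 0.344 CPM in Col-0, AT-HSFB2B, of the same family and overlapping other genes, 4.28 ± 1.11 CPM in PP2-A5oe, 7.95 ± 0.858 CPM in pp2-a5 and 12.2 ± 1.002 CPM in Col-0, and the chaperone gene Hsp70b 4.15 ± 0.351 CPM in PP2-A5oe, 5.21 ± 0.402 CPM in pp2-a5 and 6.85 ± 1.47 CPM in Col-0. Of 10 iron deficiency genes 1 lay above (2 without Col-0 replicate 3) and 1 below: NAS3, which makes nicotianamine, averaged 18.24 ± 0.712 CPM in PP2-A5oe, 31.5 ± 5.11 CPM in pp2-a5 and 15.9 ± 1.31 CPM in Col-0, and AT1G47395, of this list, 4.53 ± 1.53 CPM in PP2-A5oe, 2.22 ± 0.920 CPM in pp2-a5 and 7.02 ± 1.13 CPM in Col-0. None of 5 iron storage genes lay apart, and FER4, a ferritin, averaged 60.9 ± 2.01 CPM in PP2-A5oe, 89.5 ± 3.84 CPM in pp2-a5 and 62.6 ± 1.75 CPM in Col-0.

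The loci lying apart were spread evenly over the nuclear chromosomes, with 11.1% to 12.3% of the tested loci above and 8.52% to 9.26% below Col-0 on each of the 5. Of 77 tested chloroplast loci 5 lay above (6.49%) and 12 below (15.6%), and of 23 mitochondrial loci none lay apart. Over all tested loci the shares were 11.7% above and 8.82% below.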
